A study of Mus musculus with 24 samples.

Results

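The cells described here were the wild-type (WT) CD4 T cells of mice that served as controls for a deletion of Pdha1, compared at rest and after activation. The members were chosen by their labels alone: 3 resting and 3 activated WT libraries, 6 of the 24 in the series. Activated cells had been stimulated through CD3 and CD28 for 24 h and are labelled CD3/CD28, while the resting cells had received no stimulus. All groups shared RPMI medium with 15% fetal bovine serum and 2 mM glutamine. The genotype of the controls is given only as Wt, so whether they carried a floxed allele or CreERT2, or received tamoxifen, is not given in the sources used here, nor are strain, age and sex. Knockout (KO) cells of the same cohort carry Pdha1fl/fl CD4CreERT2, a Cre that tamoxifen switches on, and entered the model only to share its estimate of the spread. A second cohort of CD4-Cre Aclyfl/fl mice had its own 6 WT libraries, 3 resting and 3 activated, and these serve below as the other experiment on the same stimulus. Replicates are not stated to be separate animals, so every p-value measures the spread between these libraries, which may be technical.

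A resting CD4 T cell is a small cell with little cytoplasm that survives on interleukin 7 signals and makes little new RNA and protein. When its antigen receptor (CD3) and the co-receptor CD28 are engaged, calcium, kinase and NF-kappaB signals switch on immediate transcription factors and surface receptors such as CD69 and CD25, the alpha chain of the receptor for interleukin 2. The cell then builds ribosomes, mitochondria and nucleotides, grows, and enters its first S phase about a day after stimulation. Pyruvate dehydrogenase, of which PDHA1 is the catalytic alpha subunit, links the glycolysis of such cells to the mitochondrial citric acid cycle.

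Expression was measured as RPM, reads scaled to a fixed total per library, which are not scaled for transcript length, so levels are compared between libraries and not between genes. Before any gene was compared, the library labelled WT activated 3 stood apart from the other activated libraries. Over 30357 genes its log2 values correlated with the 3 resting libraries at 0.867 to 0.894, as the resting libraries did among themselves at 0.870 to 0.910, and with the other activated libraries at 0.576 and 0.760. These coefficients describe the libraries, which share cohort and processing. WT activated 1 and 2 correlated with each other at 0.823 and with the resting libraries at 0.510 to 0.631 and 0.709 to 0.803. The summed level of 1893 olfactory and vomeronasal receptor genes and pseudogenes, families that T cells are not known to express, was 104105 to 109051 RPM in the resting libraries and 106049 RPM in WT activated 3, against 26547 and 72700 RPM in WT activated 1 and 2. Protein-coding genes outside these families held 52.4% to 54.7% of resting libraries and 52.0% of WT activated 3, against 78.1% and 61.6% of WT activated 1 and 2. Depth also differed: recovered counts were 1023990, 654524 and 967436 in resting libraries 1 to 3 and 388902, 860862 and 682674 in activated libraries 1 to 3. The floor that a count of 0 allows, taken as 3 counts, was 2.03 to 3.13 RPM at rest and 6.83, 2.90 and 3.21 RPM in activated libraries 1, 2 and 3, and covers counting error only. The part of this background and depth in the results was not tested, and in such bulk samples fewer cells of a type and less RNA per cell cannot be told apart. The counts of calls and several lists are therefore given as labelled and without WT activated 3. The other lists are given without it only, and as labelled no member of any list was called. Leaving it out was a choice made with its values known.

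**Figure D1:**
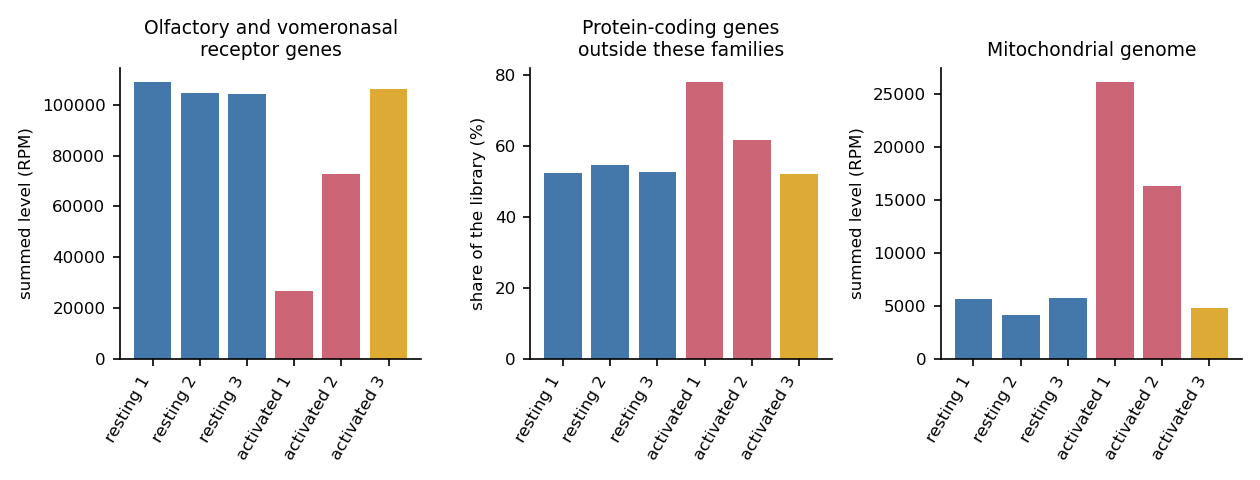
Summed level in RPM of olfactory and vomeronasal receptor genes (left), share in percent of protein-coding genes outside them (middle) and summed level in RPM of the mitochondrial genome (right), 1 bar per WT library of the Pdha1 cohort. WT activated 3 (yellow) lies within the range of the 3 resting libraries (blue) in the left and right panels and just below it in the middle panel. WT activated 1 and 2 (red) lie apart from the resting libraries in all 3 panels.

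With all 6 libraries as labelled, limma, a linear model on log2(RPM + 0.5), called no gene (0 of 30357 at an adjusted p below 0.05, 0%). At an unadjusted p below 0.05 it had 4315 genes, 2346 higher and 1969 lower after activation. edgeR on the recovered counts also called 0, and DESeq2 called 1922, 1900 of them higher. Without WT activated 3, 4338 of 29393 genes passed (14.8%): 2787 were higher (9.48%) and 1551 lower (5.28%). The median change over all genes tested was -0.56 on the log2 scale. Among the 15963 protein-coding genes outside the receptor families, 13.6% were higher and 3.79% lower, with a median of -0.15. Higher calls made up 64.2% of the calls, 93.2% by edgeR, 48.1% after quantile normalization and 43.1% after rescaling to protein-coding genes, which moved the median change of all genes to -0.39 and -0.84. Single libraries set the count. No gene passed without WT activated 1 or without WT resting 2, where 4101 and 8578 genes had an unadjusted p below 0.05. The count was 797 without WT resting 1, 2064 without WT resting 3, 9419 without WT activated 2 (2724 higher and 6695 lower) and 7825 without KO resting 3, a library outside the comparison that enters the estimate of the spread. KO resting 3 also stood apart from its label: the 17 T cell activation surface genes summed to 1231 RPM in it against 250.2 and 256 RPM in KO resting 1 and 2, and to 207 RPM in WT activated 3. The labels were kept, and why these 2 libraries differ from their groups was not tested. Of the lists described below, all but 2, the B cell markers and the erythroid and platelet markers, kept the sign of their median without WT activated 1 and without each resting library in turn.

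WT activated 3 was left out of those calls because it lay near rest, so its values are no independent check of them. In WT activated 3 the genes called higher lay at a median of 0.14 above the resting mean. Those called lower lay at -0.10, against 0.01 for all genes tested. In WT activated 1 and 2 the genes called higher had medians of 3.45 and 2.72. Of the 2787 genes called higher, 27.0% exceeded all 3 resting libraries in WT activated 3, against 25.1% of all genes tested. In WT activated 3 the genes that rose in the other activated libraries were near their resting level. All changes given from here on are log2 changes of WT activated 1 and 2 against the 3 resting libraries, with the standard error, unless said otherwise.

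**Figure D2:**
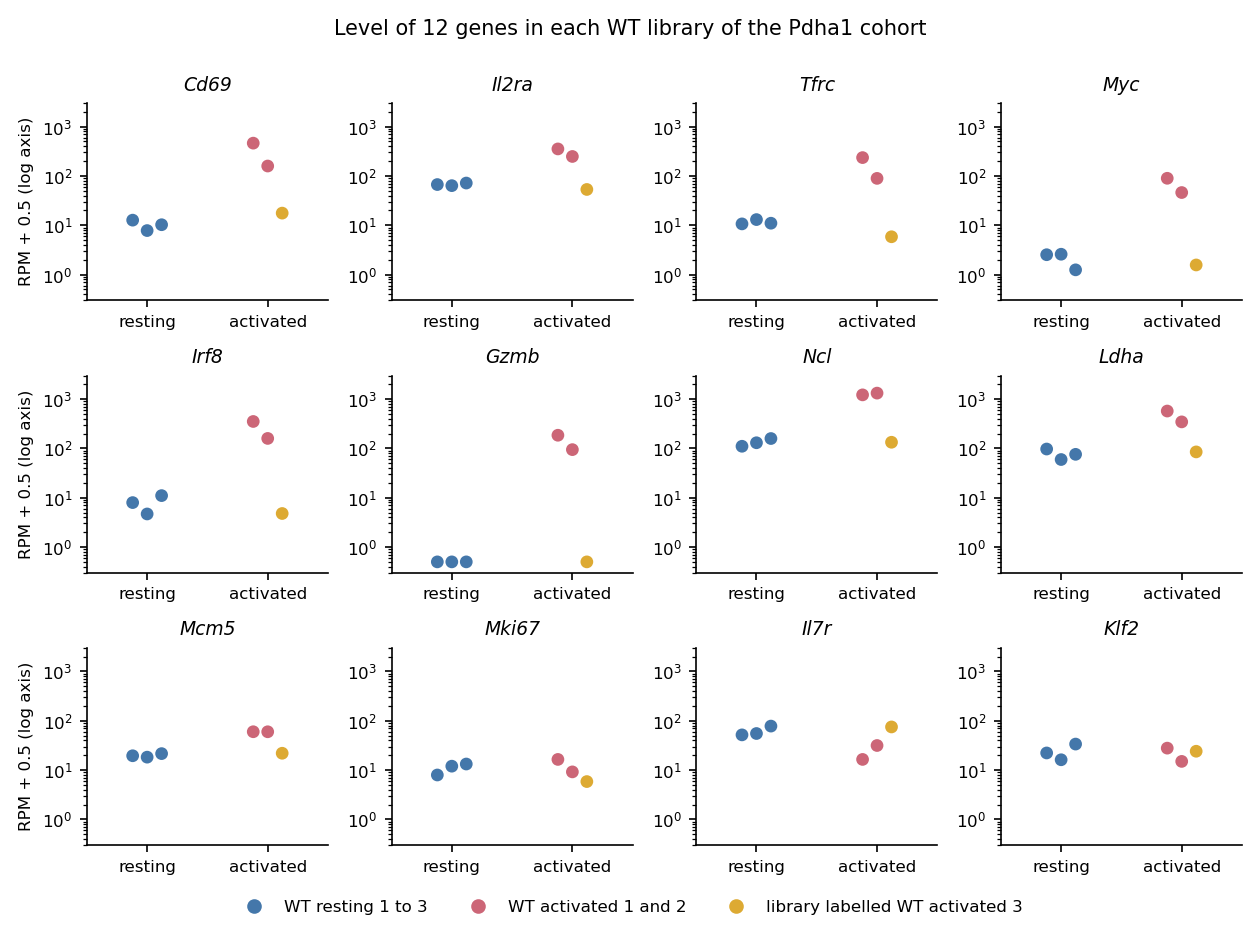
RPM plus 0.5 on a log axis for 12 genes, 1 point per WT library of the Pdha1 cohort, resting in blue, WT activated 1 and 2 in red and the library labelled WT activated 3 in yellow. For Cd69, Il2ra, Tfrc, Myc, Irf8, Gzmb, Ncl, Ldha and Mcm5 both red points lie above the blue points and the yellow point lies near them; Mki67 and Klf2 overlap, and Il7r is lower in red.

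The receptors and costimulatory molecules that mark an activated T cell were higher in WT activated 1 and 2. Of 17 such surface genes tested, 11 rose and none fell. Their median change was 2.95, against -0.56 over all genes and -0.15 over protein-coding genes. The median was 3.35 in WT activated 1, 2.60 in WT activated 2 and 0.31 in WT activated 3. With the 6 libraries as labelled it was 2.08, and none passed. Cd69, which holds activated cells in lymphoid tissue, measured 12.2, 7.32 and 9.77 RPM in resting libraries 1 to 3 and 462, 159 and 17.2 RPM in activated libraries 1 to 3. The first pair of activated libraries lay far above rest, and the last lay slightly above it. Its change was 4.75 ± 1.07 (limma adjusted p = 0.0275), and 3.44 as labelled. Il2ra, the CD25 chain, measured 66.5, 63.1 and 71.3 RPM at rest and 353, 248 and 52.8 RPM after activation, a change of 2.14 ± 0.49 (limma adjusted p = 0.0157), with WT activated 3 below every resting library. Tfrc, the transferrin receptor that brings iron to dividing cells, measured 10.2, 12.6 and 10.5 RPM at rest and 235, 88.8 and 5.35 RPM after activation, a change of 3.65 ± 0.93. Cd200, Icos and Slc3a2, the last the heavy chain of amino acid exchangers, rose by 2.95 ± 0.56, 2.72 ± 0.53 and 3.02 ± 0.60. Tnfrsf4, the costimulatory receptor OX40, measured 0.677, 1.04 and 2.25 RPM at rest and 77.8, 65.2 and 2.14 RPM after activation, but did not pass (limma adjusted p = 0.0593).

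Transcription factors of the receptor signal followed the surface genes. Of 28 tested, 14 were higher and Prdm1, the repressor Blimp-1, was lower, with a median of 3.08 without WT activated 3 and 2.10 as labelled. Myc, which drives growth and metabolism in activated T cells, measured 2.03, 2.09 and 0.750 RPM at rest and 89.3, 45.6 and 1.07 RPM after activation, and rose by 5.00 ± 1.18 (limma adjusted p = 0.0271). Irf8, an interferon regulatory factor, measured 7.46, 4.18 and 10.5 RPM at rest and 350, 159 and 4.28 RPM after activation, a rise of 4.99 ± 0.85. Its relative Irf4, known to scale with receptor signal strength, measured 4.74, 8.37 and 5.26 RPM at rest and 131, 135 and 8.57 RPM after activation and missed the threshold (limma adjusted p = 0.0530). For all 3 genes the libraries of WT activated 1 and 2 lay apart from rest, while WT activated 3 did so for Irf4 alone, by a small margin. Batf, the AP-1 partner of IRF4, had no count in any resting library and 29.7, 17.4 and 4.28 RPM after activation, at least 9.52-fold higher in WT activated 1 and 2 than the resting floor. The immediate-early genes Egr1, Nr4a3 and Nr4a1 rose by 5.44 ± 0.87, 3.34 ± 0.62 and 4.09 ± 1.13, and Hif1a, which responds to hypoxia and receptor signals, by 2.74 ± 0.53. Among 11 lineage factors of helper cells 3 rose: Tbx21 of type 1 cells by 4.27 ± 0.97, Gata3 of type 2 cells by 2.85 ± 0.72 and Foxp3 of regulatory cells by 3.25 ± 0.82. The median over those 11 was 0.30, and -0.06 after rescaling to protein-coding genes.

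The 22 genes of cytokines and cytotoxic proteins, chemokines included, summed to 99.96, 56.5 and 114 RPM at rest, with 9, 11 and 12 of them at 0, and to 1248, 1015 and 120 RPM after activation, with 3, 2 and 12 at 0. Of 21 tested, 9 were higher and none lower. Gzmb, the protease granzyme B, was at 0 in all 3 resting libraries and in WT activated 3, and at 184 and 93.8 RPM in WT activated 1 and 2, at least 56.2-fold higher than the resting floor. Ccl4, a chemokine that attracts immune cells, had 3 counts over the resting libraries and 636 over WT activated 1 and 2, a pooled ratio of 449 with a 95% exact counting interval of 153 to 2182. All pooled ratios and intervals given here are scaled by the recovered counts of the libraries, and scaling by RPM would make them higher. The intervals cover counting error only and leave out the spread between libraries. Ccl3, which lies 13229 bases from Ccl4 on chromosome 11, had 1 count at rest and 144 after activation, a ratio of 305 (54 to 12124). Both were at 1.07 RPM in WT activated 3, a single count. Il2, the growth factor that activated cells make for themselves, measured 3.39, 2.09 and 0 RPM at rest and 50.2, 16.4 and 2.14 RPM after activation and rose by 4.10 ± 1.23 (limma adjusted p = 0.0437). Tnf and Lta, neighbouring members of the tumour necrosis factor family, rose from 1 count to 29, a ratio of 61.4 (10.2 to 2508), and from 2 to 30, a ratio of 31.8 (8.06 to 274). Il4 was at 0 at rest and at 9.11, 4.83 and 0 RPM after activation, at least 2.82-fold higher than the floor. Ifng, interferon gamma, had 0, 1.04 and 0.750 RPM at rest and 161, 109 and 0 RPM after activation, yet missed the threshold (limma adjusted p = 0.0640). Of 16 genes of interleukin 2 and STAT5 signalling 5 rose, among them Cish and Pim2 by 3.23 ± 0.70 and 3.83 ± 0.83, and Il7r alone fell. Of 11 inhibitory receptors and ligands 3 rose: Pdcd1lg2, the PD-1 ligand PD-L2, from 1 count at rest to 95, a ratio of 201 (35 to 8027), Btla by 3.11 ± 0.70 and Cd5 by 2.72 ± 0.86.

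The 20 largest rises among protein-coding genes measured at 5 RPM or more were not all immune genes. Besides Gzmb, Ccl4, Ccl3, Pdcd1lg2 and Sema7a, a membrane semaphorin that was at 0 at rest and at least 10.8-fold higher in WT activated 1 and 2, they held genes for protein folding, ribosome building and mitochondria. Hspe1 and Hspd1 encode the HSP10 and HSP60 chaperonins that fold proteins inside mitochondria, and they lie head to head on chromosome 1, their annotated bodies overlapping by 111 bases. Hspe1 measured 17.7, 11.5 and 35.5 RPM at rest and 2675, 697 and 29.0 RPM after activation, a rise of 6.10 ± 1.64 (limma adjusted p = 0.0470). Hspd1 measured 7.46, 3.14 and 6.01 RPM at rest and 364.6, 256 and 9.64 RPM after activation, a rise of 5.74 ± 1.59. In both, WT activated 1 and 2 stood clear of every other library, and in WT activated 3 Hspe1 lay within the resting range. Overlapping genes can share reads, but they lie on opposite strands; whether the counting used strand is not given in the sources used here. Their start regions are shown because both genes rose and a single stretch serves both. The RefSeq promoter window of Hspe1, from 250 bases before to 50 after its start, is chr1:55087898-55088197 on the plus strand of GRCm38.p6 and shares 285 bases with a window of Hspd1 on the minus strand. The capitals mark its match to a heat shock element, searched as GAANNTTC on both strands, which 7.86% of all 32851 windows of this length hold.

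Hspe1: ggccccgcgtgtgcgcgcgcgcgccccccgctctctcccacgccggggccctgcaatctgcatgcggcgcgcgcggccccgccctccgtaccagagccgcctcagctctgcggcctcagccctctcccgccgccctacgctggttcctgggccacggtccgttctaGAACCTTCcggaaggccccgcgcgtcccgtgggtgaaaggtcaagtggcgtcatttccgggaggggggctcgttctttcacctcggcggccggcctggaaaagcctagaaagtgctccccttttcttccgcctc

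The other genes of this group were Ruvbl2, an ATPase of chromatin and ribonucleoprotein assembly, at 4.07, 1.04 and 4.51 RPM at rest and 329, 149.5 and 8.57 RPM after activation, and Mif, a cytokine made by many cells, at 12.9, 7.32 and 18.1 RPM at rest and 1106, 439 and 13.9 RPM after activation. They rose by 6.08 ± 1.30 and 5.80 ± 1.51, and Ddt, the paralog of Mif on the same chromosome, rose from 3 counts to 94, a ratio of 66.3 (22.0 to 327). Gbp2, an interferon-induced GTPase of host defence, rose by 6.32 ± 1.33, and Atf3, a stress-induced factor, by 5.83 ± 1.16. Pno1 and Nop2, which act in the making of the small and large ribosomal subunit, rose by 6.71 ± 1.18 and 5.97 ± 1.64. Timm10, an import chaperone of mitochondria, Fam162a, and the RNA methyltransferase Nsun2 rose by 5.71 ± 1.06, 5.82 ± 1.40 and 5.63 ± 1.17. Gfi1, a transcriptional repressor, went from 2 counts to 122, a ratio of 129 (35 to 1078), Spry1, a brake on receptor kinases, from 3 to 150, a ratio of 106 (36 to 519), and the proteasome subunit Psmb2 from 2 to 68, a ratio of 72.0 (19 to 606).

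The machinery that makes, folds and removes proteins was higher in WT activated 1 and 2 across several lists. Of 36 ribosome biogenesis factors 19 rose and none fell, with a median of 3.42, and of 30 cytosolic ribosomal proteins 16 rose, with a median of 3.52. edgeR called 26 and 28 of them higher, against 11.1% of all genes. As labelled the medians were 2.26 and 2.30 with none called, and in WT activated 3 alone they were 0.11 and -0.08. Ncl, the nucleolar protein nucleolin, measured 109.8, 129 and 158 RPM at rest and 1214, 1318 and 132.5 RPM after activation, with WT activated 3 inside the resting range, and rose by 3.27 ± 0.63 (limma adjusted p = 0.0106). Rrs1 and Polr1c, a biogenesis factor and a subunit of RNA polymerases I and III, rose by 4.13 ± 0.77 and 4.24 ± 0.83. Rps18 measured 183, 89.7 and 253 RPM at rest and 2344, 1071 and 151 RPM after activation, a rise of 3.30 ± 0.66. Ribosomal proteins have many processed pseudogenes, and 506 of the 2787 genes called higher were processed pseudogenes, against 3520 of all 29393 tested, so their reads could be split among copies.

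Translation factors and tRNA synthetases moved with them. Among 20 translation factors 13 rose, including Eif4e, the cap-binding protein, by 2.27 ± 0.47 and Eif4g2 by 3.33 ± 0.65, and among 21 aminoacyl-tRNA synthetases 12 rose, including Rars by 4.24 ± 0.73 and Tars by 2.55 ± 0.48. The cytosolic chaperonin CCT, which folds actin and tubulin, and its helpers had the highest share called of any list: 12 of 14 rose, with a median of 4.67 (3.17 as labelled, 0.28 in WT activated 3). Cct6a measured 22.4, 16.7 and 19.6 RPM at rest and 784, 294.5 and 22.5 RPM after activation and rose by 4.59 ± 0.94. Cct3 and Cct4 rose by 2.89 ± 0.51 and 4.12 ± 0.82. Of 28 proteasome subunits 18 rose, with a median of 3.60, among them Psma3 from 56.8, 54.7 and 63.7 RPM at rest to 534, 253 and 58.2 RPM, a rise of 2.65 ± 0.54, and of 18 genes of the unfolded protein response 9 rose, including the lectin chaperone Canx by 2.49 ± 0.47. Of 14 ATF4 targets and regulators of the amino acid stress response, with a median of 1.88 and 11 changes positive, limma called Asns, asparagine synthetase, higher (3.34 ± 0.74), while Slc7a11, the cystine carrier, fell (by 1.82 ± 0.57 on the log2 scale). The call for Asns is 7.14% of the list, against 9.48% called higher over all genes and 13.6% over protein-coding genes. edgeR called 3 of the list higher.

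**Figure D3:**
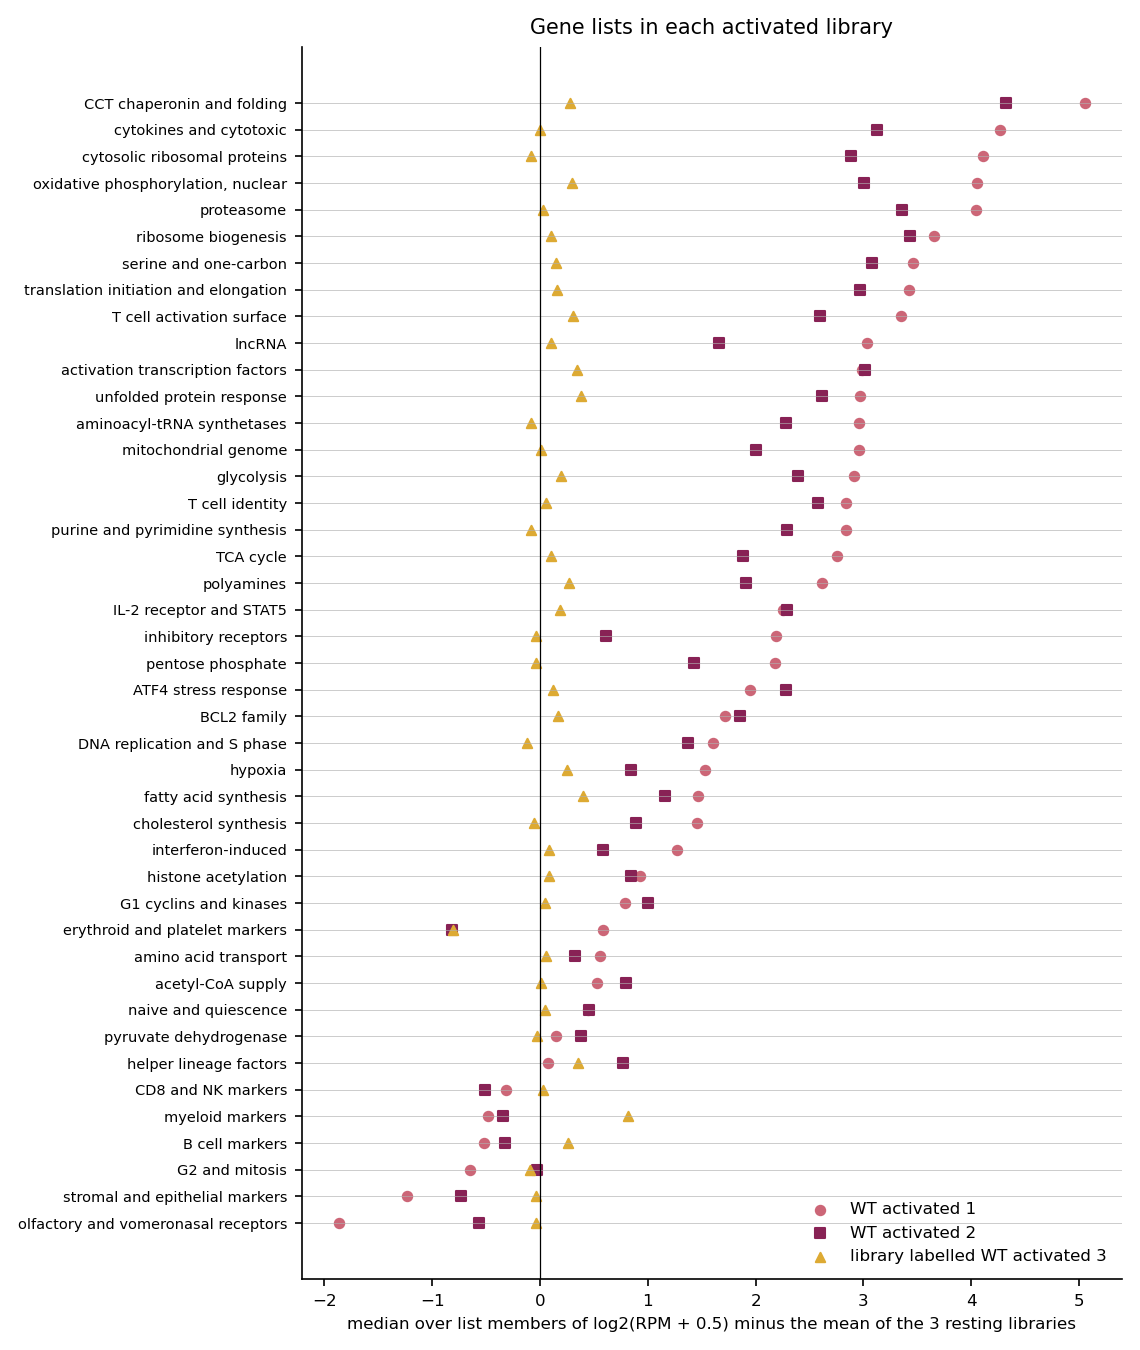
Median over the members of each gene list of log2(RPM + 0.5) minus the mean of the 3 resting libraries, 1 point per activated library: WT activated 1 (red circles), WT activated 2 (purple squares) and the library labelled WT activated 3 (yellow triangles). For ribosome biogenesis, proteasome, CCT chaperonin and oxidative phosphorylation the circles and squares lie at 3.00 to 5.05 and the triangles at 0.03 to 0.30.

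The start regions of ribosome biogenesis genes were searched for CACGTG, the canonical E-box that MYC and related factors bind. It was in 8 of 36 windows of this list (22.2%) and in 7.15% of all windows. Nop2, among the largest rises, is shown as an example, at chr6:125131633-125131932 on the plus strand of GRCm38.p6 with the match in capitals. A match is a description of these letters and not a bound site.

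Nop2: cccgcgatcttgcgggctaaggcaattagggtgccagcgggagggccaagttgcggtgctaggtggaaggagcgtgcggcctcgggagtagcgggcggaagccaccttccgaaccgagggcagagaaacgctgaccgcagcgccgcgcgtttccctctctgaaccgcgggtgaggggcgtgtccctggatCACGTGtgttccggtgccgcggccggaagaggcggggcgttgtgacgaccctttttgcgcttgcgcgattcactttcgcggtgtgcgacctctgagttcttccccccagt

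Metabolic genes of several pathways rose. Of 23 glycolysis genes 13 rose and none fell, with a median of 2.79 (2.12 as labelled, 0.20 in WT activated 3). Ldha, lactate dehydrogenase A, measured 96.5, 58.9 and 75.2 RPM at rest and 570.5, 344 and 84.3 RPM after activation, a rise of 2.55 ± 0.51 (limma adjusted p = 0.0106), and Gapdh measured 72.7, 77.0 and 91.4 RPM at rest and 729, 846 and 81.0 RPM after activation, a rise of 3.29 ± 0.67. In both genes WT activated 3 lay inside the resting range. Hk1 rose by 2.79 ± 0.59 and the glucose carrier Slc2a1 by 2.91 ± 0.93, while Hk2, the inducible hexokinase, measured 10.2, 11.5 and 11.3 RPM at rest and 9.11, 21.3 and 13.9 RPM after activation and was not called. Pgd and Taldo1 were the 2 of 7 pentose phosphate genes that rose, by 1.80 ± 0.47 and 2.53 ± 0.75. Of 15 genes of serine and one-carbon metabolism 7 rose, with a median of 3.62, among them Mthfd1l, Mat2a and Mthfd2, which carry or use folate-borne or methyl carbon, by 4.40 ± 0.82, 3.73 ± 0.68 and 3.79 ± 0.95. Of 20 purine and pyrimidine genes 9 rose, including Impdh2 of guanine synthesis by 5.29 ± 1.00, Ctps by 3.09 ± 0.72 and Adss by 2.12 ± 0.49. Odc1, which starts polyamine synthesis, measured 17.0, 11.5 and 25.6 RPM at rest and 296, 190 and 24.7 RPM after activation and rose by 3.75 ± 0.93 with Sms, Dohh, Sat1 and Azin1 among the 12 of its list.

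Mitochondrial energy genes of both genomes were higher in WT activated 1 and 2. Of 46 nuclear subunits of oxidative phosphorylation 30 rose, all 46 had a positive change and the median was 3.46. Of 13 protein genes of the mitochondrial genome 8 rose, with a median of 2.48. As labelled these medians were 2.38 and 1.84 with none called, and in WT activated 3 alone they were 0.30 and 0.01. mt-Nd1, a subunit of complex I, measured 366, 219.7 and 465 RPM at rest and 3795, 1915 and 302 RPM after activation, a rise of 3.01 ± 0.56 (limma adjusted p = 0.0106). Its nuclear partners Ndufb5 and Ndufa9 rose by 3.43 ± 0.66 and 3.34 ± 0.67, and Atp5b of ATP synthase by 3.12 ± 0.64. mt-Nd4 and mt-Cytb rose by 2.48 ± 0.49 and 2.73 ± 0.60. In the citric acid cycle 11 of 22 rose, with a median of 2.44 (1.68 as labelled, 0.10 in WT activated 3). Among them were Mdh1 by 3.64 ± 0.62, Idh3b by 3.01 ± 0.53 and Suclg1 by 2.74 ± 0.49.

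The enzyme deleted in the KO arm of this cohort was measured in its WT cells as follows. Pdha1 was at 6.78, 3.14 and 6.01 RPM at rest and 84.7, 40.8 and 5.35 RPM after activation, so WT activated 1 and 2 exceeded every resting library and WT activated 3 did not, and the change did not pass (limma adjusted p = 0.103). Of 14 genes of the pyruvate dehydrogenase complex and its supply, 2 rose: the pyruvate carrier subunit Mpc1, from 1 count at rest to 31, a ratio of 65.6 (10.9 to 2675), and the inhibitory kinase Pdk3, by 2.94 ± 0.78. These 2 are 14.3% of the list, near the 13.6% of protein-coding genes called higher, against 9.48% of all genes. The median change of the 14 genes was 0.26. Dlat, the E2 core, measured 3.39, 1.04 and 2.25 RPM at rest and 36.5, 24.2 and 2.14 RPM after activation and missed the threshold (limma adjusted p = 0.0521). Of 8 genes of acetyl-CoA supply outside the complex, Acat2 rose by 3.68 ± 0.70 and Acss1 fell by 2.63 ± 0.86 on the log2 scale, being at 0 in WT activated 1. Each is 12.5% of the list, against 13.6% called higher and 3.79% called lower over protein-coding genes. Acly, which makes cytosolic acetyl-CoA from citrate, measured 5.42, 1.04 and 11.3 RPM at rest and 68.6, 32.0 and 4.28 RPM after activation (limma adjusted p = 0.0609). Of 25 cholesterol synthesis genes 5 rose, among them the regulator Srebf2 by 1.94 ± 0.44. Of 16 fatty acid genes 3 rose: Fasn, fatty acid synthase, from 2 counts to 30, a ratio of 31.8 (8.06 to 274), Mcat from 2 to 16, a ratio of 16.9 (3.98 to 152), and Acsl4, by 2.73 ± 0.58. The rises are 20% of the cholesterol list and 18.75% of the fatty acid list, against 13.6% of protein-coding genes. The medians were 1.32 and 0.96. As labelled they were 0.71 and 0.64 with none called, and in WT activated 3 alone -0.05 and 0.40. Amino acid carriers were mixed: of 14 tested 4 rose, among them Slc1a5 for glutamine by 4.01 ± 0.82 and Slc7a1 for arginine by 2.19 ± 0.52, and 2, Slc16a10 and Slc7a11, fell. Slc7a5, the large neutral amino acid carrier, measured 7.46, 1.04 and 9.77 RPM at rest and 82.4, 71.1 and 2.14 RPM after activation without passing (limma adjusted p = 0.142).

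Cell cycle genes are given by phase, and whether the lists differ from one another was not tested. Of 37 DNA replication genes 19 rose and none fell, with a median of 1.53 (0.91 as labelled, -0.12 in WT activated 3). Mcm6, a subunit of the replicative helicase, measured 4.07, 7.32 and 6.76 RPM at rest and 115, 58.4 and 5.35 RPM after activation, a rise of 3.69 ± 0.65 (limma adjusted p = 0.0106). Mcm4 rose by 3.53 ± 0.65 and the replication factor Gins1 from 2 counts to 31, a ratio of 32.8 (8.35 to 283). Of 28 genes of G2 and mitosis 2 rose and 2 fell, 7.14% each way, with a median of -0.60. These lie near the 9.48% higher, 5.28% lower and median of -0.56 over all genes. Over protein-coding genes 13.6% were higher and 3.79% lower, with a median of -0.15, so fewer of the list rose and more fell than there. The kinesin Kif20a went from 2 counts to 14, a ratio of 14.8 (3.40 to 134), and the kinase Aurka rose by 2.69. Hmmr and Nusap1, which bind the mitotic spindle, fell by 1.31 ± 0.40 and 2.78 ± 0.79 on the log2 scale. Mki67, the Ki-67 antigen of cycling cells, measured 7.46, 11.5 and 12.8 RPM at rest and 16.0, 8.70 and 5.35 RPM after activation, so the groups overlapped. Of 19 G1 regulators 4 rose, among them Cdk4 by 3.08 ± 0.71, Rbl1 by 1.83 ± 0.49 and the inhibitor Cdkn1a by 1.86 ± 0.50. Cyclin D2, Ccnd2, measured 28.6, 34.6 and 50.7 RPM at rest and 539, 749 and 58.2 RPM after activation but was not called (limma adjusted p = 0.0627), and Ccne1 measured 9.50, 5.23 and 9.02 RPM at rest and 11.4, 5.80 and 8.57 RPM after activation.

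The same stimulus in the WT cells of the Acly cohort allowed a test of the difference between the 2 experiments, which share no libraries. Cohort, Cre line and any difference in handling cannot be told apart in it. The makeup of the libraries also differed. Receptor families held 30239 to 40501 RPM in the activated WT libraries of the Acly cohort, against 26547 and 72700 RPM in WT activated 1 and 2 here. Protein-coding genes outside them held 72.3% to 74.8% there, against 78.1% and 61.6% here. The part of this in the difference was not tested. The change in the Pdha1 cohort minus that in the Acly cohort passed for 16 of 34740 genes without WT activated 3 (0.0461%) and for 16 of 35290 as labelled (0.0453%), 13 of them shared, and all 16 of each were lower in the Pdha1 cohort. Without WT activated 3 the count became 541, 514 of them lower, when WT activated 2 was also left out, 5 without WT activated 1, and 9 and 4 without WT resting 1 and 3. As labelled it became 580, of which 398 were higher, without WT activated 1, 27 without WT activated 2, and 8 and 6 without WT resting 1 and 3. Those with the smallest adjusted p included Rrm2, Top2a, Mki67 and Gm11336, of which the first 3 are genes of DNA synthesis and mitosis. Rrm2, the ribonucleotide reductase subunit that supplies deoxynucleotides, rose here, and in the activated WT cells of the Acly cohort it was higher by 6.93 ± 0.42. It measured 12.9, 7.32 and 9.77 RPM at rest and 66.3, 40.8 and 2.14 RPM after activation in the Pdha1 cohort, against 6.96, 7.05 and 5.96 RPM and 799, 1013 and 822 RPM in the Acly cohort. The difference was -4.58 ± 0.64 (limma adjusted p = 0.000329). As labelled it was not called (limma adjusted p = 0.0802).

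Mki67 and Top2a differed with and without WT activated 3. Mki67 went from 5.80, 7.05 and 5.96 RPM at rest to 111, 150 and 140 RPM in the Acly cohort, which is above every WT library of the Pdha1 cohort, a difference of -4.12 ± 0.63. Top2a, the topoisomerase that untangles chromosomes, measured 33.4, 35.7 and 33.2 RPM at rest and 41.1, 33.0 and 24.7 RPM after activation here, against 20.9, 22.6 and 50.8 RPM and 326, 350 and 277 RPM in the Acly cohort, a difference of -3.32 ± 0.49 (limma adjusted p = 0.000470). After 24 h these genes thus overlapped their resting levels in the Pdha1 cohort and lay above them in every activated WT library of the Acly cohort. Gm11336, an unprocessed pseudogene within a histone cluster region of chromosome 13, was at or near 0 in the Pdha1 cohort and at 43.1, 34.1 and 14.1 RPM in the activated Acly libraries. Over the whole replication list the difference was negative in 37 of 38 genes, with a median of -1.71 and 3 genes called, Rrm2 and Uhrf1 among them, and the list's median change was 3.63 in the Acly cohort. For G2 and mitosis it was negative in 26 of 30, with a median of -1.75 and 3 called, Top2a, Mki67 and Nuf2, and the median in the Acly cohort was 1.51. Over all genes tested the difference was negative in 16996 of 34740, with a median of 0.02. Ribosome biogenesis, with medians of 3.42 and 4.33 in the 2 cohorts, had no gene called in the difference, which was negative in 25 of 36 genes with a median of -0.60. For glycolysis it was negative in 18 of 23, with a median of -0.78. Whether the lists differ from one another in this was not tested. For none of the lists of activation surface genes, transcription factors, cytokines, glycolysis or oxidative phosphorylation was a member called in the difference, which does not show that they changed alike.

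**Figure D4:**
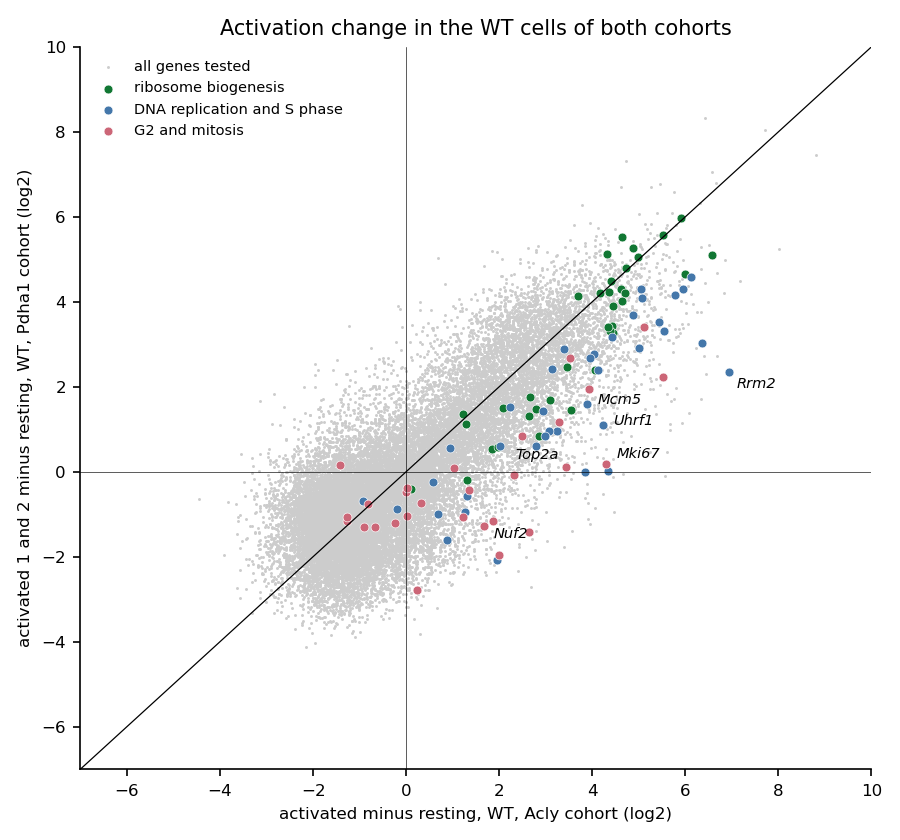
Log2 change with activation of each gene tested in the WT cells of the Acly cohort (horizontal axis) and of the Pdha1 cohort without WT activated 3 (vertical axis), with replication genes in blue, G2 and mitosis genes in red, ribosome biogenesis genes in green and all others in grey; the diagonal marks equal change. Most blue and red points lie below the diagonal, among them Rrm2, Mki67 and Top2a, whose difference between the cohorts was called.

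Because E2F factors are known to drive S phase genes, start regions were searched for the E2F sites TTTCCCGC and TTTGGCGC on both strands. A match was in 10 of 40 windows of the replication list (25%), in 0 of 26 of the G2 and mitosis list and in 1.56% of all windows. Among the genes of the cohort difference, Pclaf, a PCNA-binding protein named here after its values were seen, has 1 match, and the windows of Rrm2, Top2a, Mki67 and Uhrf1 have none. No match says only that these letters are not in this window. Mcm6, which rose, and Pclaf, which did not, are shown with the matches in capitals. The window of Mcm6 is chr1:128359656-128359955 on the minus strand and that of Pclaf chr9:65890073-65890372 on the plus strand of GRCm38.p6. Pclaf measured 67.2, 46.2 and 66.0 RPM at rest and 22.8, 54.4 and 50.6 RPM after activation here, and 41.9, 41.0 and 59.8 RPM and 204, 176 and 156 RPM in the Acly cohort, a difference of -2.64 ± 0.49 (limma adjusted p = 0.0128).

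Mcm6: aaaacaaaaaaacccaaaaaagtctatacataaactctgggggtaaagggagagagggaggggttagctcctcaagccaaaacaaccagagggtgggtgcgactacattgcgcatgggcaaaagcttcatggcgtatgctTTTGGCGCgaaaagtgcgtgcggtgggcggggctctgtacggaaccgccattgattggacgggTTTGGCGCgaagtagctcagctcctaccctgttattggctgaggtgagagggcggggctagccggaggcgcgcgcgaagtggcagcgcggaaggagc
Pclaf: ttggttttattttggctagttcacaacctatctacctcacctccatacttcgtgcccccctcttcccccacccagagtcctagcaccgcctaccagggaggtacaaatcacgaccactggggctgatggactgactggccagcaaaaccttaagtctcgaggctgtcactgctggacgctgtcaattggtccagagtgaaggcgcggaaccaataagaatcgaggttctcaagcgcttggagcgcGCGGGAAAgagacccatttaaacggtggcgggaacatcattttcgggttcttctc

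Of 28 genes of naive and quiescent T cells tested, 3 fell (10.7%, against 5.28% of all genes) and 1 rose (3.57%, against 9.48%), with a median of 0.51, and 17 had groups that did not overlap in WT activated 1 and 2 against rest. Among protein-coding genes 3.79% fell and 13.6% rose, with a median of -0.15. Over all genes the groups did not overlap upward in 22.7% and downward in 31.2%, and with WT activated 3 included in 5.87% and 10.3%, where 4 of these 28 did not. Il7r, the interleukin 7 receptor, measured 51.3, 54.7 and 77.5 RPM at rest and 16.0, 31.0 and 74.5 RPM after activation, so WT activated 1 and 2 lay below rest and WT activated 3 within it, and it fell by 1.41 ± 0.46 on the log2 scale (limma adjusted p = 0.0472). Klf3 fell by 1.42 ± 0.43 on that scale and Pik3ip1, an inhibitor of PI3 kinase, was the third to fall, while Satb1, a chromatin organizer, rose by 3.01 ± 0.60. Klf2, the factor that keeps T cells quiescent and recirculating, measured 21.7, 15.7 and 33.2 RPM at rest and 27.4, 14.5 and 23.6 RPM after activation, with WT activated 1 and 3 inside the resting range and WT activated 2 below it, and was not called. The trafficking genes S1pr1 and Ccr7 were not called by limma either. S1pr1, the egress receptor, measured 23.8, 15.7 and 40.0 RPM at rest and 9.11, 8.70 and 19.3 RPM after activation. Ccr7 measured 8.82, 3.14 and 14.3 RPM at rest and 54.8, 50.5 and 18.2 RPM after activation, without passing in limma (adjusted p = 0.233), while edgeR called its rise without WT activated 3 (adjusted p = 0.0392).

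The labelled cell type was checked against its markers. All 20 genes of T cell identity were detected in each of the 6 libraries, their summed level was 661, 429 and 963 RPM at rest and 5280, 3501 and 745 RPM after activation, and 12 rose. Cd3e measured 23.8, 13.6 and 30.9 RPM at rest and 108, 99.7 and 21.5 RPM after activation, a rise of 2.24 ± 0.53 (limma adjusted p = 0.0176). Cd28 and Ptprc, the phosphatase CD45, rose by 3.39 ± 0.70 and 3.28 ± 0.62, and Thy1 by 1.95 ± 0.54. Cd4 measured 52.0, 44.1 and 50.7 RPM at rest and 98.5, 105 and 56.0 RPM after activation and was not called (limma adjusted p = 0.0958). Resting libraries and WT activated 3 thus had low levels of T cell markers beside a large receptor-family background. The 14 B cell markers summed to 389, 168 and 447 RPM at rest and 405, 229 and 370 RPM after activation and none was called, with Pax5 and Blk at 0 in WT activated 1. Of 11 tested CD8 and NK cell markers Nkg7 rose (9.09%, against 9.48% of all genes and 13.6% of protein-coding genes). The list summed to 61.9 to 98.6 RPM over all 6 libraries, with Gzmk at 0 in WT activated 1 and 2. Of 12 myeloid markers Cst3 rose by 2.77 ± 0.71 (8.33% of the list, against 9.48% of all genes and 13.6% of protein-coding genes). The list summed to 68.1 to 126 RPM at rest and 59.3, 70.6 and 109 RPM after activation, with 7 of 14 members at 0 in WT activated 1, Cd14 and Itgam among them. Erythroid and platelet markers varied widely, at 14663, 2806 and 32775 RPM at rest and 29836, 6293 and 6242 RPM after activation, with no order by group and none of 8 tested called, and Pf4 at 0 in all 6. Of 6 stromal and epithelial markers tested Col3a1 fell, and the list of 10 summed to 109 to 124 RPM at rest and 68.5 to 105 RPM after activation. Their part in the changes was not tested.

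Among the remaining lists, 6 of 26 interferon-induced genes rose, with Ifi47, an immunity-related GTPase, at 30.0, 12.6 and 61.4 RPM at rest and 1052, 480 and 46.3 RPM after activation, a rise of 4.61 ± 0.90 (limma adjusted p = 0.0162). Gbp4 rose by 1.47 ± 0.39. Of 13 hypoxia genes 5 rose, among them Hif1a and the prolyl hydroxylases Egln1, by 1.95 ± 0.56, and Egln3, from 2 counts to 32, a ratio of 33.9 (8.64 to 292). Of 13 BCL2 family genes 3 rose: the survival gene Bcl2 from 66.5, 52.6 and 76.7 RPM at rest to 400.2, 287 and 72.3 RPM, by 2.39 ± 0.44, Bcl2a1b by 4.76 ± 1.11 and the death effector Bax by 2.17 ± 0.58. Bcl2a1b has near-identical paralogs, so its reads are uncertain. Of 20 histone acetylation genes 6 rose, including the deacetylase Hdac2 by 3.60 ± 0.64 and the acetyltransferase Kat5 by 2.37 ± 0.69, and Kat6b fell. Of 12 long noncoding RNAs 7 rose, among them the snoRNA host genes Snhg3, Snhg5 and Snhg12 by 4.54 ± 0.86, 2.14 ± 0.50 and 2.81 ± 0.73, while the nuclear Malat1 measured 62.3, 72.7 and 76.7 RPM at rest and 22.8, 131 and 76.7 RPM after activation.

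The genes called lower had another makeup. Of 1551, 605 were protein-coding (39.0%, against 77.6% of those called higher and 54.3% of all genes tested). Olfactory or vomeronasal receptors made up 169 (10.9%, against 4.54% of all tested), and 654 had no count in WT activated 1, the shallowest library (42.2%, against 32.3%). Of the 1333 receptor genes tested none rose and 169 fell (12.7%), with a median of -1.25. The 10 largest falls by the fixed rule were Rax, Tarm1, Pak3, Rhobtb3, Itga9, Clcn7, Cyp1b1, Lrch2, Tmem136 and Tmem45b, and all 10 were at 0 in WT activated 1, where 3 counts are worth 6.83 RPM. Rax, a homeobox factor of the eye, measured 44.4, 36.7 and 40.0 RPM at rest and 0, 14.5 and 41.9 RPM after activation. Clcn7, a lysosomal chloride carrier, measured 23.8, 38.8 and 27.1 RPM at rest and 0, 12.6 and 26.8 RPM after activation. Tarm1 measured 19.0, 14.7 and 21.8 RPM at rest and 0, 3.86 and 18.2 RPM after activation. In all 3 WT activated 1 and 2 lay below every resting library and WT activated 3 within the resting range. Rhobtb3, Cyp1b1 and Lrch2 had no count in WT activated 1 and 2 and were at least 1.18-fold, 1.13-fold and 1.11-fold lower than at rest, bounds set by the floor. These falls moved with the share of the libraries held by the receptor families, given above, and its part in them was not tested.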

How the data were processed

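RNA was measured in mouse CD4 T cells by sequencing total RNA (stranded TruSeq kit with ribosomal and globin depletion, 75 bp single-end reads), per the labels' protocols. The authors deposited a single table of RPM for 46981 mouse gene identifiers in 24 libraries. Each column sums to 1000000. GRCm38 and mm10 are the builds in the submitters' processing notes. Which aligner, counting tool and gene models were used is not given in the sources used here. Once a correction for collisions among 4096 molecular identifiers was inverted, 100% of the 678237 values above 0 were whole counts within 0.01, with at most 4095 counts per gene and library, so the highest genes are compressed. The labels name no such identifiers. Symbols and biotypes came from GENCODE M21 (46206 identifiers matched) and promoter windows from RefSeq on GRCm38.p6.

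The main test was limma 3.58.1 (R 4.3.3) with a mean-variance trend and robust fitting, on log2(RPM + 0.5) for genes at 1 RPM or more in at least 3 libraries. The pseudocount understates changes of low genes. The 12 libraries of the Pdha1 cohort (11 without WT activated 3) shared the spread, and all 24 (23) entered the test of the difference between cohorts. P-values were adjusted by Benjamini-Hochberg over all genes, with 0.05 as the threshold. edgeR 4.0.16 and DESeq2 1.42.0 were run on the recovered counts, rounded. The limma fits of activation were also run on simulated counts with an equal dispersion for all genes and no outlying library. That run cannot show whether the calls hold in these data. Values after ± are standard errors. Ratios of genes with 1 to 3 resting counts pool the counts over libraries and carry exact 95% intervals, which cover counting error only. They are scaled by recovered totals without the collision correction, which the RPM values hold. With corrected totals these ratios and intervals would be higher.

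The comparison, its 42 gene lists (787 of 789 symbols in the table) and the rule for naming genes were chosen with earlier results of these data known. The rule names fixed anchor genes, the 20 largest rises and 10 largest falls among called protein-coding genes at 5 RPM or more that moved the same way in every resting and activated pair, up to 3 members of each list with the smallest p and the 5 genes with the smallest adjusted p in the cohort difference. Members named to complete a count of 5 or fewer, and genes at 0 among the marker lists, were chosen after their values were seen. A few genes that the rule selects are not reported here.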

Additional observations from a re-analysis of the deposited data

Results flagged for a closer look

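Genes whose change with activation differed between the WT cells of the 2 cohorts are listed here because the test of that difference called them. There were 16 without WT activated 3 and 16 as labelled, all with a smaller rise in the Pdha1 cohort. On the log2 scale the difference without WT activated 3 was -4.58 for Rrm2, -3.32 for Top2a, -4.12 for Mki67, -2.64 for Pclaf and -6.27 for Gm11336. All 3 resting Acly libraries had no count of Gm11336, so its fitted value depends on the pseudocount. Cohort, Cre line and handling cannot be told apart in this comparison.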

How the results depend on the processing

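As labelled, the count of genes called stayed at 0 under every alternative listed here and in the text except DESeq2 (1922), edgeR without KO resting 3 and leaving out WT activated 3; over the fits without a single WT replicate it ranged from 0 to 4338. The second of these, added after seeing the data, called 2272. Without WT activated 3, the 4338 calls became 2596 with a pseudocount of 0.1, 2790 without trend and robust fitting and 7825 without KO resting 3, and ranged from 0 to 9419 over the fits without a single replicate. Where this left WT activated 1 or 2 alone, that library was assumed to vary like the other groups. For the cohort difference as labelled, the 16 calls became 6 and 58 with pseudocounts of 0.1 and 1, 93 with TMM-style scaling, 10 after rescaling to protein-coding genes, 1 with only the groups compared, 44 without trend and robust fitting, 9 with edgeR, 48 with edgeR without KO resting 3, 237 with DESeq2 and 40 without KO resting 3, and ranged from 6 to 580 over the fits without a single replicate. Without WT activated 3 they became 8 and 36 with those pseudocounts, 8 with quantile normalization, 8 after rescaling to protein-coding genes, 6 with only the groups compared, 31 without trend and robust fitting, 5 with edgeR, 125 with edgeR without KO resting 3, 71 with DESeq2 and 38 without KO resting 3, and ranged from 4 to 541. The causes were not tested.

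Replicate numbers are not stated to pair the samples. Same-numbered resting and activated WT libraries deviated from their group means with correlations of 0.01, -0.05 and -0.24. The activated mean included WT activated 3, so these values cannot decide whether the numbers pair the samples. With a replicate block the count was 2621 for activation without WT activated 3, and 4 and 5 for the cohort difference as labelled and without it; as labelled activation stayed at 0. No change given for a named gene turned its direction under any alternative, but 145 lost their call without WT activated 1, 143 without WT resting 2, 81 and 39 without WT resting 1 and 3, 32 with DESeq2, 31 with a pseudocount of 0.1, 30 without trend and robust fitting, 28 with the replicate block, 21 without WT activated 2 and at most 20 under each other alternative, edgeR (17) among them. The shallowest library, WT activated 1, sets a floor of 6.83 RPM, below which a fall in it was not detectable.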

Other observations

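The 16 genes called in the cohort difference without WT activated 3 held others that the rule for naming did not reach, given here after their values were seen. Uhrf1, which keeps DNA methylation through replication, measured 5.42, 6.27 and 6.01 RPM at rest and 13.7, 12.6 and 6.43 RPM after activation in the Pdha1 cohort, against 6.96, 4.23 and 4.47 RPM and 105, 109 and 99.9 RPM in the Acly cohort. Nuf2, a kinetochore protein, measured 28.6, 36.7 and 43.8 RPM at rest and 9.11, 23.2 and 31.1 RPM after activation, against 29.1, 12.7 and 31.3 RPM and 68.3, 80.7 and 70.2 RPM. Fam111a, a protease of replication forks, measured 9.50, 10.5 and 12.8 RPM at rest and 4.56, 7.73 and 6.43 RPM after activation, against 9.28, 9.87 and 11.9 RPM and 65.3, 82.3 and 46.9 RPM.

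A histone gene was among them. Hist1h2ae, a replication-dependent histone H2A gene, was at 0, 0 and 0.750 RPM at rest and 0, 0.966 and 0 RPM after activation in the Pdha1 cohort, and at 0 in all resting and 37.0, 47.7 and 23.8 RPM in the activated WT libraries of the Acly cohort. The pseudogene Hist1h2aj, at 0 in all 3 activated libraries here and at 42.1, 26.9 and 14.1 RPM there, shares its family, and near-identical histone copies can share reads. Rpph1, the RNA of ribonuclease P, was at 2.28, 0 and 1.07 RPM after activation here and at 47.1, 32.5 and 29.2 RPM there.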
